A study of Mus musculus with 6 samples.

Results

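The SNARE and ESCRT genes of membrane resealing are 10 genes: Snap23, Stx4a, Vamp2 and Vamp3 of the SNARE machinery, and Chmp4b, Chmp2a, Pdcd6, Pdcd6ip, Tsg101 and Vps4b of the ESCRT machinery. They were chosen by name for their known role in resealing, when earlier results of these data were already known. All 10 matched a gene ID among the 57010 in the count matrix. The data are poly(A)-selected RNA-seq libraries of gastrocnemius muscle from 6 untreated mice aged 3 months, 3 per group. The mutants were homozygous Dysfprmd/Dysfprmd animals of the BLAJ strain B6.A-Dysfprmd/GeneJ, which lacks dysferlin in every tissue, and the controls were wild-type animals labelled C57BL/6. Each animal was an independent replicate, per the labels. The sexes were unequal: the mutant group had 2 females (replicates 1 and 2) and 1 male (replicate 3), and the control group had males only.

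A tear in the plasma membrane of a muscle fibre lets calcium in, and calcium calls up several repair systems. In one, vesicles fuse with the membrane and with each other: a vesicle SNARE such as VAMP2 or VAMP3 zips onto a syntaxin and a SNAP protein of the target membrane, and dysferlin is a calcium-binding protein placed at this step. In another, the calcium sensor ALG-2 (Pdcd6) brings ALIX (Pdcd6ip) to the wound, ALIX and ESCRT-I gather ESCRT-III filaments of CHMP proteins that pinch off the damaged patch, and the VPS4 ATPases take the filaments apart.

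Library totals ran from 35042245 to 43733641 read pairs in genes. Dysf (ENSMUSG00000033788), the mutated gene, had 72.3, 99.8 and 145 CPM in the control libraries, and 15.8, 14.7 and 20.3 CPM remained in the mutant libraries, where CPM are depth-scaled counts after TMM normalization. The fall in Dysf was called (log2 fold change -2.64, SE 0.28, edgeR adjusted p = 0.0249). Its fold change stayed between -2.86 and -2.35 in every alternative fit, but edgeR no longer called it in the model with sex (adjusted p = 0.546), in males only (0.998), without pseudogenes (0.0981), and without mutant replicate 1 (0.228), 2 (0.178) or 3 (0.0637). Muscle fibre transcripts were abundant in every library, with 12 listed markers summing to between 150865 and 204115 CPM. The controls carried Ifi202b at 1.02 to 7.69 CPM against 0 counts in the 3 mutants, a gene that C57BL/6 mice do not express, so strain and loss of dysferlin cannot be told apart in this comparison. The 6 listed markers of denervated or regenerating fibres summed to 27.2 to 826 CPM in controls and 39.9 to 69.1 CPM in mutants. Most of the highest sum was the sarcolipin gene Sln in control replicate 2, at 678 CPM against 14.6 CPM or less elsewhere. Of the 6 genes, 5 were lower and 1 was higher in mutants, and 0 were called by edgeR.

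The comparison asks whether muscle without dysferlin carries more or less transcript of the other resealing proteins. None of the 10 genes was called in either direction (edgeR, adjusted p below 0.05), and none had an unadjusted p below 0.05. Over all 15589 genes tested, 0.199% were called (0.186% lower and 0.0128% higher in mutants) and 6.94% had an unadjusted p below 0.05. DESeq2 and limma-voom also called 0 of the 10, against 1.01% and 0.148% of the genes they tested. The fold changes were small and closely bounded, lying between -0.18 and 0.06 on the log2 scale. The 95% intervals of the 10 reached from a ratio of 0.703 to a ratio of 1.24 (mutant over control), so each excluded a change of 1.5-fold either way. That limit also held without control replicate 2 (0.718 to 1.29) and without mutant replicate 3 (0.695 to 1.33). It did not hold in the other cases, where the lowest bound was a ratio of 0.656 without control replicate 1, 0.648 without control replicate 3, 0.635 without mutant replicate 1 and 0.641 without mutant replicate 2. With sex as a covariate the intervals reached from 0.559 to 1.44, and in males only, with 1 mutant, from 0.513 to 1.53. In whole tissue, fewer cells of a type and less RNA per cell cannot be told apart.

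**Figure D1:**
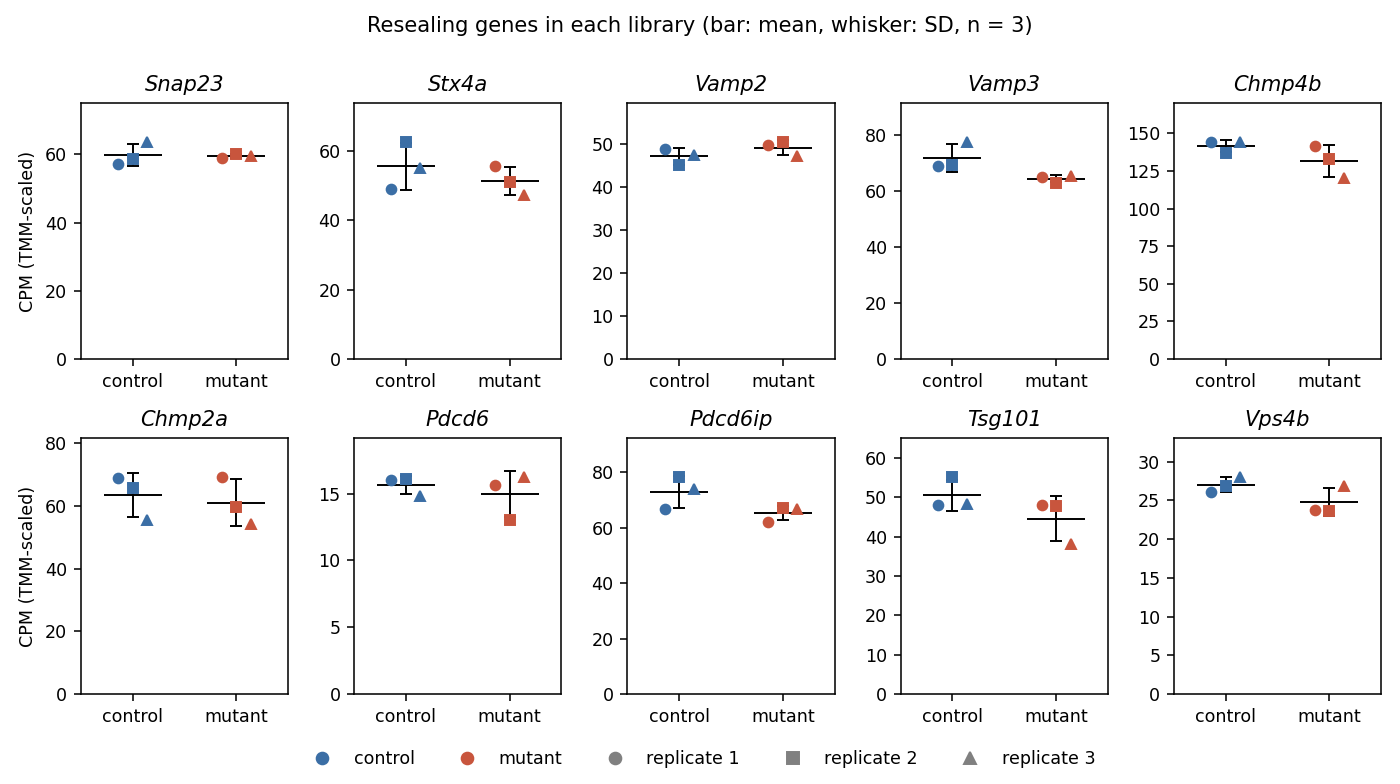
Level of each resealing gene in CPM (TMM-scaled, axis from 0) in 3 control libraries (blue) and 3 mutant libraries (red), with the marker shape giving the replicate, the bar the group mean and the whisker the SD. The groups overlap in 8 of the 10 genes. In Vamp3 and Tsg101 every mutant library lies below every control, as in 6.09% of all genes tested. Among tested genes in the same range of levels it was 390 of 5322.

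**Figure D2:**
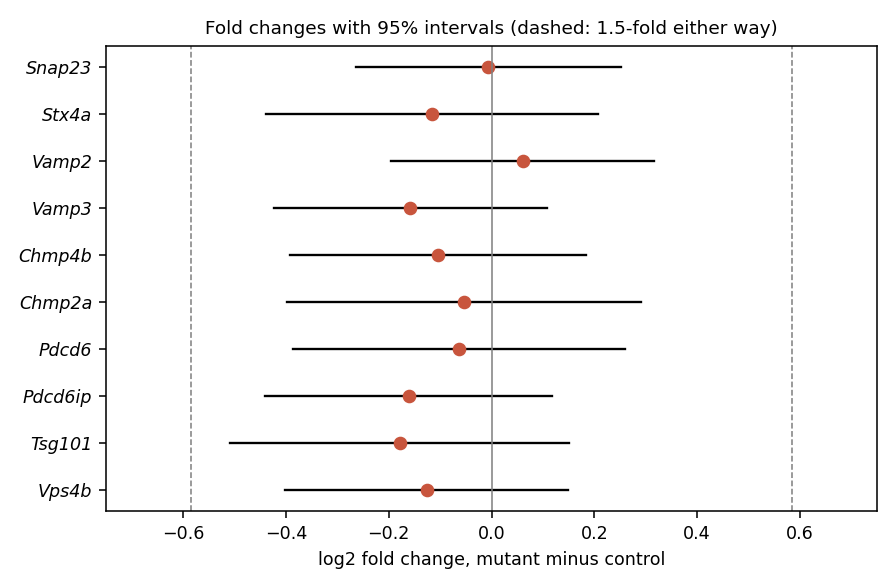
Log2 fold change of each resealing gene, mutant minus control, with its 95% interval from the edgeR fit (dots and lines) and dashed lines at a ratio of 1.5 either way. Every interval crosses 0 and stays inside the dashed lines.

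The SNARE genes came first in this comparison because dysferlin is placed at vesicle fusion. Snap23 (ENSMUSG00000027287), the SNAP protein that tissues outside the nervous system use in place of SNAP-25, had 57.3, 58.6 and 63.6 CPM in controls 1, 2 and 3, and mutants 1, 2 and 3 had 58.9, 60.2 and 59.5 CPM. All 3 mutant values fell inside the range of the controls. The group means were 59.8 ± 3.35 and 59.5 ± 0.640 CPM (SD, n = 3 each), and the log2 fold change was -0.01 (95% interval -0.26 to 0.25, edgeR adjusted p = 0.996).

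Stx4a (ENSMUSG00000030805), the syntaxin of the muscle plasma membrane that also receives glucose transporter vesicles, measured 49.0, 62.6 and 55.2 CPM in controls and 55.6, 50.9 and 47.4 CPM in mutants. The controls spread more widely than the groups differed, with control replicate 2 highest and mutant replicate 3 lowest. Its log2 fold change was -0.12 (interval -0.44 to 0.21, edgeR adjusted p = 0.919), and it was -0.02 without control replicate 2.

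Vamp2 (ENSMUSG00000020894), a vesicle SNARE of synaptic and glucose transporter vesicles, measured 48.9, 45.0 and 47.4 CPM in controls and 49.7, 50.4 and 47.2 CPM in mutants. It was the one gene of the 10 with a positive fold change (log2 0.06, interval -0.20 to 0.32, edgeR adjusted p = 0.954), and the groups overlapped. Vamp3 (ENSMUSG00000028955), its close relative on recycling endosomes, also called cellubrevin, measured 68.9, 69.2 and 77.6 CPM in controls and 65.1, 63.0 and 65.3 CPM in the mutants. Every mutant library lay below every control in Vamp3, as it did for 6.09% of all genes tested. The gap was narrow: the means were 71.9 ± 4.90 and 64.5 ± 1.30 CPM, and the log2 fold change was -0.16 (interval -0.42 to 0.11, edgeR unadjusted p = 0.205, adjusted p = 0.842).

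Among the ESCRT genes, Pdcd6 (ENSMUSG00000021576), the calcium sensor that acts first, measured 16.0, 16.1 and 14.8 CPM in controls and 15.7, 13 and 16.2 CPM in mutants. Mutant replicate 2 was lowest and mutant replicate 3 highest, so the groups overlapped fully. The log2 fold change was -0.06 (interval -0.39 to 0.26, edgeR adjusted p = 0.961).

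Pdcd6ip (ENSMUSG00000032504), which encodes the adaptor ALIX that binds both ALG-2 and CHMP4 proteins, measured 66.7, 78.2 and 74.0 CPM in controls and 62.2, 67.0 and 66.6 CPM in mutants. Control replicate 1 lay within the range of the mutants, and the other controls lay above it. The means were 73.0 ± 5.82 and 65.3 ± 2.65 CPM (log2 -0.16, interval -0.44 to 0.12, edgeR adjusted p = 0.847).

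Tsg101 (ENSMUSG00000014402), the ESCRT-I subunit that recognises ubiquitin and links cargo to ESCRT-III, measured 48.05, 55.1 and 48.2 CPM in controls and 48.00, 47.8 and 38.0 CPM in mutants. The lowest control and the highest mutant were nearly equal, although every mutant library lay below every control, as for 6.09% of all genes tested. The low value came from mutant replicate 3, the male mutant, and the female mutants lay close to controls 1 and 3. Its log2 fold change, the lowest of the 10, was -0.18 (interval -0.51 to 0.15, edgeR adjusted p = 0.867) and -0.08 without mutant replicate 3. With sex as a covariate it was -0.41 (interval -0.84 to 0.02, edgeR unadjusted p = 0.0594, adjusted p = 0.874), and in males only -0.41 (interval -0.96 to 0.15). Those values rest on 1 male mutant, and the part of sex was not tested apart from that animal.

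Chmp4b (ENSMUSG00000038467), the main building block of ESCRT-III filaments, had the highest counts of the 10, at 144, 137 and 144 CPM in controls and 142, 133 and 121 CPM in the mutants. Mutant replicate 1 lay within the controls, and mutant replicate 3 was lowest here too. The log2 fold change was -0.10 (interval -0.39 to 0.18, edgeR adjusted p = 0.918).

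Chmp2a (ENSMUSG00000033916), an ESCRT-III subunit that joins the filament late and recruits VPS4, measured 68.9, 65.7 and 55.4 CPM in controls and 69.1, 59.6 and 54.4 CPM in mutants. Each group spread over about the same range, and the ranges overlapped almost fully. Its log2 fold change was -0.05 (interval -0.40 to 0.29, edgeR adjusted p = 0.969).

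Vps4b (ENSMUSG00000009907), one of the paired ATPase genes that disassemble ESCRT-III, measured 26.1, 26.9 and 28 CPM in controls and 23.8, 23.6 and 26.8 CPM in mutants. The female mutants were lowest and the male mutant lay among the controls. The log2 fold change was -0.13 (interval -0.40 to 0.15, edgeR adjusted p = 0.895). In the model that includes sex it was -0.01.

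Most fold changes had the same sign, although none was called. Of the 10 genes, 9 had a fold change below 0 (median log2 -0.11), against 50.2% of all genes tested (median 0.00 to 2 decimals, -0.00154). Genes with a mean level in the range of the 10, from 15.3 to 137 CPM, were also lower more often: 3005 of 5322, or 56.5%, with a median of -0.03. Summed over the 10 genes, the level was 594 to 614 CPM in the controls and 542 to 590 CPM in the mutants. This sum takes its highest share from Chmp4b. With upper-quartile scaling, which moved the median of all genes by 0.03, 8 of the 10 were below 0 and their median was -0.08. In every setting tried, including each library left out, 8 or 9 of the 10 were below 0, and the medians ran from -0.15 to -0.07. The sign of Snap23, Vamp2, Chmp2a and Pdcd6 changed in at least 1 of those settings.

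The levels were steady from animal to animal. The coefficient of variation over all 6 libraries was 3.62% for Snap23 and 4.11% for Vamp2, the lowest of the 10, and 11.5% for Tsg101, the highest. The median over the 10 was 7.81%, against 20.6% over all genes tested and 14% over tested genes in the same range of levels. These values rest on 473 to 6043 read pairs per gene and library, and include counting error.

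Levels can be set against each other only per length, and for this the CPM were divided by the length of the principal transcript in kilobases (RPKM). The ESCRT-III genes led, with Chmp4b at 84.6 RPKM and Chmp2a at 65.5 RPKM as means over the 6 libraries. Stx4a (36.7 RPKM), Vamp3 (32.2 RPKM), Tsg101 (24.4 RPKM), Snap23 (21.9 RPKM) and Vamp2 (21.8 RPKM) followed. Pdcd6 (13.5 RPKM), Pdcd6ip (11.6 RPKM) and Vps4b (5.58 RPKM) were lowest. The ranges over libraries overlapped between Stx4a and Vamp3, Tsg101 and Snap23, Snap23 and Vamp2, and Pdcd6 and Pdcd6ip, so those neighbours in the order were not separated beyond their spread, although Stx4a was above Vamp3 and Pdcd6 above Pdcd6ip within each of the 6 libraries. Dividing by all annotated exons of a gene instead put Vamp3 above Stx4a and Pdcd6ip above Pdcd6.

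In most families the member was the leading paralog of this muscle. Snap23 took 44.0% to 53.0% of the summed RPKM of the SNAP-25 family and led in all 6 libraries, with Snap47 at 12.6 RPKM, Snap29 at 9.55 RPKM and the neuronal Snap25 at 0.733 RPKM. Stx4a took 80.9% to 87.6% of the summed level of Stx4a, Stx2, Stx3 and Stx1a, with Stx2 and Stx3 at 3.64 and 3.11 RPKM and the neuronal Stx1a at 0.281 RPKM. Chmp4b took at least 99.3% of the CHMP4 level in every library, and Chmp2a 72.1% to 74.9% of the CHMP2 level, beside Chmp2b.

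Vps4b, Pdcd6 and the vesicle SNAREs were the exceptions. Vps4a, at 34.6 RPKM, was above Vps4b in all 6 libraries, and Vps4b made up 14.2% ± 0.791 of the pair in controls and 13.6% ± 1.46 in mutants (SD, n = 3 each). Pef1, the partner of ALG-2, stood at 14.4 RPKM beside Pdcd6, and by principal transcript Pdcd6 was the higher in 2 of 6 libraries. By all annotated exons Pef1 was the higher in all 6 (14.4 against 5.48 RPKM). Vamp5, a VAMP enriched in striated muscle, stood at 93.9 RPKM and was above Vamp3 in all 6 libraries by its short principal transcript, but in 3 of 6 by the length of all its annotated exons. Vamp8 (33.5 RPKM), known from secretory and endosomal fusion, lay near Vamp3 by principal transcript but below it by all annotated exons (11.9 against 23.6 RPKM), and Vamp1 (13 RPKM) and Vamp4 (12.5 RPKM) lay below Vamp2.

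**Figure D3:**
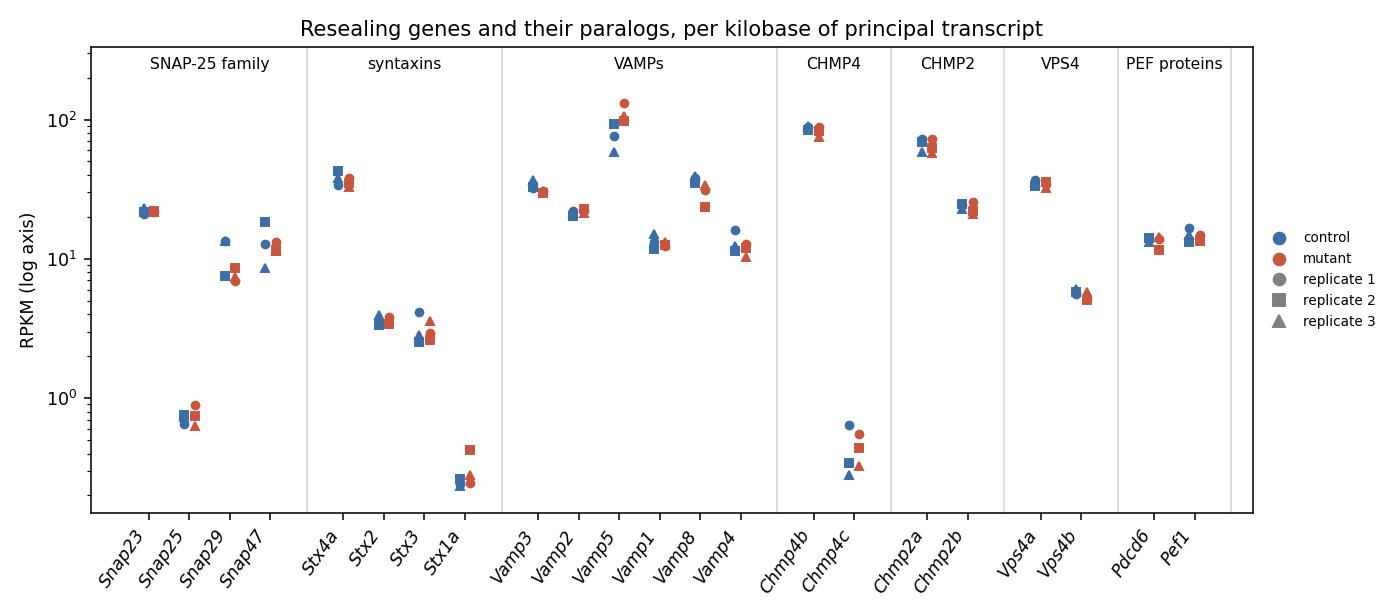
RPKM (log axis, principal transcript length) of the resealing genes and their paralogs in the control (blue) and mutant (red) libraries, 1 point per library, with marker shapes giving the replicate. Chmp4b, Stx4a and Snap23 stand above their paralogs in all 6 libraries, whereas Vps4b lies below Vps4a.

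Sequence upstream of the start site was available in a RefSeq table (GRCm38.p6) for 8 of the 10 genes: Snap23, Stx4a, Chmp4b, Chmp2a, Pdcd6, Pdcd6ip, Tsg101 and Vps4b. In the 250 bases before the start, these promoters held 43.2% to 66.8% G and C (median 60.0%, against 52.4% over 32851 promoters of the table) and 9 to 30 CpG pairs (median 18.5, against 6). None of the 8 held the TATA box TATAAA on either strand, which 12.4% of all promoters hold. CCAAT was found in Snap23 and Stx4a (33.8% of all), GGGCGG in Stx4a and Pdcd6 (32.7%), CCGGAAG in Tsg101 (6.91%) and CACGTG in Pdcd6ip (6.02%), each searched on both strands, with overlapping matches in Stx4a. Such matches describe the letters of this window and not binding. The promoters of the gene with the highest level, the steadiest gene and the gene with the lowest fold change are shown 5′ to 3′, ending at the base before the start, with capitals on any match to these motifs:
Chmp4b (GRCm38.p6, chr2:154656776-154657025, plus strand): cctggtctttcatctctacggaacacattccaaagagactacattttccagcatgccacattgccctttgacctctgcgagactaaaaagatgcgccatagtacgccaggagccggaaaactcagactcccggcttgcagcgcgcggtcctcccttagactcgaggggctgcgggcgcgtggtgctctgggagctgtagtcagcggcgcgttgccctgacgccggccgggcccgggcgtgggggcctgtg
Snap23 (GRCm38.p6, chr2:120567421-120567670, plus strand): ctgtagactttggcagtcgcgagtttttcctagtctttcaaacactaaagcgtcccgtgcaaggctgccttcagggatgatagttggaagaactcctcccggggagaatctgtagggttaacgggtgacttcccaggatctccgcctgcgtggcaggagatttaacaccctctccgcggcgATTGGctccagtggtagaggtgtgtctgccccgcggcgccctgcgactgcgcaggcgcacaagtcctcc
Tsg101 (GRCm38.p6, chr7:46919970-46920219, minus strand): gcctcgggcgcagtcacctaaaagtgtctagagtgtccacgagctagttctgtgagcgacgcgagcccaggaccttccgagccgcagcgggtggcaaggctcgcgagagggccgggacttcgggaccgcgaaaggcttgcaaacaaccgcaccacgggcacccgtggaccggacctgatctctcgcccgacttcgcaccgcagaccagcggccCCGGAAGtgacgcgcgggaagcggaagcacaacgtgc
The Chmp4b stretch holds 21 CpG pairs and none of the motifs, Snap23 has 17 CpG pairs and 1 CCAAT box read on the opposite strand, and Tsg101 has 30 CpG pairs, the most of the 8, with its ETS-type CCGGAAG near the start.

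The wider machinery had no called gene either. Its fold changes ranged from -0.99 to 0.56 for SNAREs, -0.84 to 0.29 for their regulators and -0.54 to 0.25 for ESCRT genes. These lists are longer than the 10 genes, and a longer list tends to have a wider range. The median absolute log2 fold change was 0.110 for SNAREs, 0.108 for regulators and 0.093 for ESCRT genes, against 0.110 for the 10. Of 36 SNARE genes listed, 34 were tested and 0 were called by edgeR (2 at an unadjusted p below 0.05), 23 being lower with a median of -0.06. Of 19 genes that load, open or recycle SNAREs, all were tested and 0 were called (1 at an unadjusted p below 0.05), 10 being lower with a median of -0.03. Of 39 ESCRT genes, 38 were tested, 0 were called and 0 had an unadjusted p below 0.05, with 25 lower and a median of -0.06. DESeq2 and limma-voom called 0 genes of these lists too. By complex, the medians were -0.26 for the 3 genes of ESCRT-0, -0.07 for 9 of ESCRT-I, 0.05 for 2 of ESCRT-II, -0.05 for 11 of ESCRT-III, -0.05 for 3 of VPS4 and its cofactor and -0.07 for 10 accessory genes. In ESCRT-0, control replicate 2 was the highest library for Hgs (48.4 CPM), Stam (25.4 CPM) and Stam2 (21.2 CPM). Without that library the log2 fold change of Stam, the median gene, was -0.04. Values without it are not given for Hgs, Stam2 or the ESCRT-0 median.

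**Figure D4:**
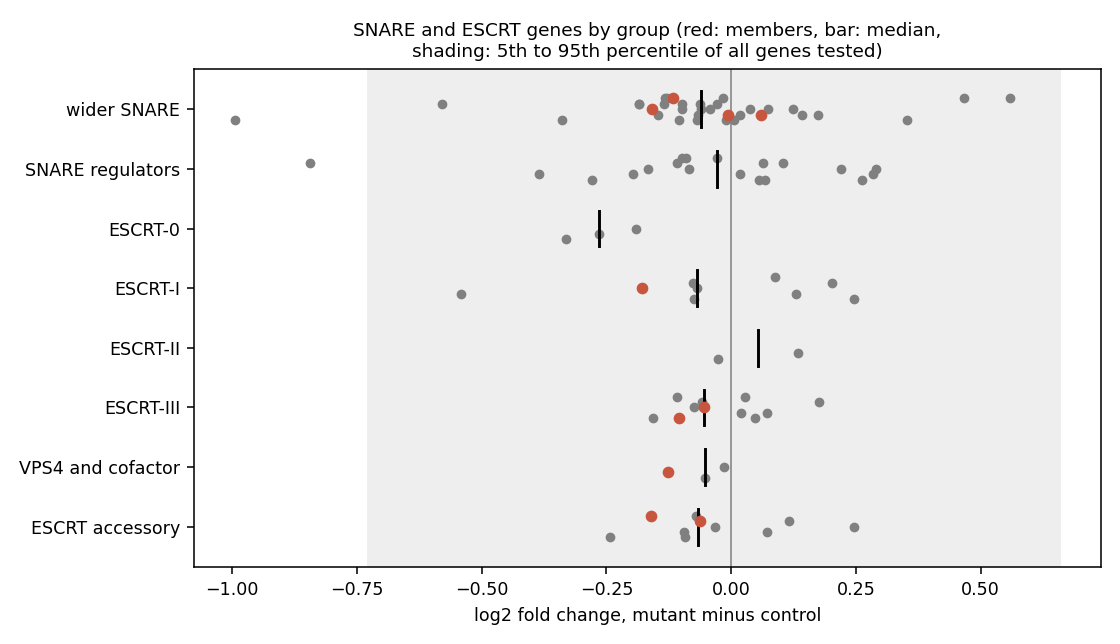
Log2 fold change, mutant minus control, of the tested SNARE, SNARE-regulator and ESCRT genes (grey dots; the resealing genes in red), with the median of each group as a bar and the 5th to 95th percentile of all genes tested shaded (-0.73 to 0.66). Stx11 and Napb are the genes outside the shading, and Stx11 is there through control replicate 2, at 4.19 CPM against at most 1.27 CPM in any other library.

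The genes with the smallest p-values in these lists did not pass the adjusted threshold. Vamp5 measured 47.8, 57.8 and 36.3 CPM in controls and 81.8, 61.2 and 66.1 CPM in mutants. Every mutant library was above every control in Vamp5, as in 5.97% of all genes tested (log2 0.56, SE 0.20, edgeR adjusted p = 0.655). Snap29, a SNAP protein of autophagosome and endosome fusion, measured 46.0, 25.9 and 46.4 CPM in controls and 24.1, 29.5 and 25.7 CPM in the mutants. Control replicate 2 lay among the mutants, so the groups overlapped (log2 -0.58, SE 0.23, edgeR adjusted p = 0.696). Use1, a SNARE of traffic from the Golgi to the endoplasmic reticulum, stood at 28.4 ± 7.65 and 39.3 ± 6.17 CPM (edgeR adjusted p = 0.754).

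Among the regulators, Stxbp4, a syntaxin 4 binding protein, measured 48.5, 36.0 and 37.7 CPM in controls and 30.4, 30.8 and 32.3 CPM in mutants. All mutants were below all controls in Stxbp4, as in 6.09% of all genes tested (log2 -0.38, SE 0.15, edgeR adjusted p = 0.677). Napb, an adaptor that brings the ATPase NSF to spent SNARE complexes, stood at 16.9 ± 8.10 and 9.40 ± 2.7 CPM, and Scfd2 at 9.56 ± 1.02 and 11.7 ± 0.553 CPM (edgeR adjusted p = 0.777 each). In the ESCRT list, Vps37b, an ESCRT-I subunit, stood at 3.70 ± 1.12 and 2.55 ± 0.208 CPM, Cc2d1a, a CHMP4-binding protein, at 24.2 ± 3.37 and 20.4 ± 1.54 CPM, and Stam of ESCRT-0 at 19.7 ± 5.02 and 16.4 ± 0.636 CPM (edgeR adjusted p = 0.777, 0.815 and 0.843).

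Markers of other cells leaned towards higher or lower in most lists, and their part in any value above was not tested. All 5 neutrophil markers were lower in mutants, summing to 8.19 to 26.8 CPM in controls and 2.76 to 8.56 CPM in mutants, and all 5 adipocyte markers were higher (154 to 286 and 234 to 395 CPM). Of 8 macrophage markers 7 were higher (110 to 171 and 127 to 216 CPM), and of 6 Schwann and nerve markers 5 were higher (70.2 to 298 and 98.3 to 405 CPM). All 6 endothelial markers were higher (250 to 255 and 266 to 376 CPM). Of 5 fibroblast markers 3 were higher and 2 lower (661 to 3319 and 635 to 4184 CPM). No gene of these lists was called by edgeR.

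Vamp3, the member with the smallest p-value, was set against 7487 protein-coding genes with a mean of at least 10 CPM. Over the 6 libraries, the genes whose log2 CPM followed it most closely were Ubxn1 (Pearson r = 0.98), Psmd5 (r = 0.98) and Uck2 (r = 0.98), and 54 genes had an r of at least 0.9. Ubxn1 measured 174, 174 and 225 CPM in controls and 141, 139 and 141 CPM in mutants. With 6 libraries and so many genes compared, such values describe these libraries only.

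Counting could have touched a few of these genes. The span of Vamp3 overlaps that of Camta1 on the same strand, and read pairs in a shared exon would be ambiguous. Whether exons are shared was not tested. Strand-matched counts were 99.1% to 100% of the unstranded counts in each of the 10 genes and libraries, and reads on the opposite strand were at most 0.915%. Tsg101 has a processed copy, Tsg101-ps, whose transcript matches it over 1176 bases at 97.9% identity, and Chmp2a has Gm8185 (669 bases, 94.0%). These copies held at most 11 and 4 counts in a library, against 1494 and 2136 or more for the genes themselves. Multimapping pairs stood in an entry of their own, at 5.83% to 9.78% of pairs, and were not assigned to genes. The authors' deposited table listed all 10 genes, with 0 past an adjusted p of 0.05 and a lowest p of 0.283 for Vamp3.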

How the data were processed

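Raw counts of read pairs in genes were deposited for 6 libraries and were equal to the unstranded column of their per-library count files in all 57010 genes, although the libraries were directional. The submitters' processing notes name GRCm39, STAR 2.7.11b and DESeq2 1.50.2. Which gene models were counted is not stated there or in the file headers. Entries that name no gene made up 18.5% to 22.3% of read pairs and stayed out of library sizes and tests. The authors' deposited results table holds log2 fold changes, Wald statistics as scores, p-values and mean normalized signal, and was used only where named.

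Counts were tested with edgeR 4.0.16 (R 4.3.3): TMM, filterByExpr with a minimum count of 10, no covariates, the quasi-likelihood F-test with robust dispersion, and Benjamini-Hochberg adjustment over 15589 genes, called below 0.05. SE and 95% intervals come from that F statistic. Counts of 3 in a library equal 0.0686 to 0.0856 CPM and cover counting error only. Simulated data for this comparison held 15292 genes. Of the genes tested, 18.2% of 66 changed 2-fold, 75.8% of 66 changed 4-fold and 95.0% of 60 changed 8-fold were recovered. The changed genes were drawn from genes of all levels, and 10 of the 129 calls fell on unchanged genes. Alternatives used DESeq2 1.42.0, limma 3.58.1, other scalings, filters, strand-matched counts, sex, a replicate block, males only, and libraries left out.

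Gene symbols, transcript lengths (longest principal transcript), overlaps between whole gene spans and blastn 2.17.0 copies came from GENCODE M21. Copies had at least 90% identity over 30% of the transcript. That annotation is built on GRCm38, so gene coordinates are not given. Symbols matched 52081 IDs. Vamp7 matched no ID and is not analysed here. Plots used matplotlib 3.10.9. Besides the 10 genes and Dysf, the naming rule took the closest paralogs, up to 3 genes per wider list with the smallest p, and 3 genes following the member with the smallest p. Genes at the edge of a plot and marker genes were named after their values were seen. Members and lists were chosen with earlier results of these data known. The fit reported did not pair animals by replicate number, and its p-values measure the spread between animals.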

Additional observations from a re-analysis of the deposited data

How the results depend on the processing

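The 10 resealing genes, the wider SNARE genes with their regulators and the wider ESCRT genes had 0 calls in each of the 19 alternatives, the looser threshold of 0.1 included. The direction of Stx4a, Vamp3, Chmp4b, Pdcd6ip, Tsg101 and Vps4b held in every alternative. Values near 0 changed sign. Snap23 was at 0.024 with upper-quartile scaling, and from -0.043 to 0.033 with 1 library left out. Vamp2 was at -0.015 in DESeq2 with sex. Chmp2a ran from -0.15 to 0.022 with 1 library left out. Pdcd6 was at 0.035 in DESeq2 with sex, 0.055 in males only, 0.052 with sex as a covariate, and from -0.13 to 0.027 with 1 library left out. The cause of these changes was not tested.

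The count over all genes, 31 in the fit reported, moved more. DESeq2 called 199, DESeq2 with sex 88 and edgeR without a filter 79. EdgeR called 0 with sex as a covariate, 0 in males only and 0 without pseudogenes (882, 594 and 1009 at an unadjusted p below 0.05). Leaving out 1 library gave 6 to 49 calls, with 49 without control replicate 2, 7 without mutant replicate 1 and 6 without mutant replicate 2. With the replicate block 11 genes were called over all and 0 of the 10, and the block moved no gene of the 10 by more than 0.01. The deviations of same-numbered animals from their group means correlated at 0.25, -0.06 and 0.23, and those of different-numbered animals at -0.28 to 0.16. With 3 animals per group, these values cannot decide whether the numbers pair the animals. With 3 animals against 3, a change inside the intervals given is not excluded. The intervals are not a limit of detection. In simulated data 18.2% of the genes changed 2-fold were recovered, among genes drawn from all levels and spreads. That share was not computed for genes with the levels and spread of the 10.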
